A study of Mus musculus with 17 samples.

Results

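Capture-C libraries from mouse erythroid cells with an α-globin promoter and gene body inserted into the α-globin locus (αP+G, n = 4) were compared with libraries from cells with the promoter alone (αPonly, n = 4). These 8 samples, of 17 in the series, were chosen by genotype and cell type in their labels. The libraries of the same reporter line without an insert (WT αYFP, n = 3) were fitted together with them, so that the 3 groups shared 1 estimate of the spread. All 3 groups were CD71+ erythroid cells made from mouse embryonic stem cells by embryoid body differentiation for 7 days. CD71 is the transferrin receptor, a surface protein of iron-importing erythroid precursors, and the cells were selected on it. Each line carries the locus on 1 allele with a yellow fluorescent reporter on Hba-a1 (Hba-a1-YFP), and a large deletion removed the locus from the other allele. The inserts lie at a landing site between the enhancers and the globin genes. They were made by CRISPR-directed repair with a selection cassette between loxP sites, which lets Cre recombinase remove it. Per the study's methods the replicates are independent differentiations, and other assays on these lines used a representative clone per genotype. Where each genotype is 1 clone, clone and insert cannot be told apart. Capture-C measures genomic DNA, so the erythroid identity of the cells could not be checked against marker genes.

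Capture-C joins DNA ends that lie close together in crosslinked nuclei, enriches the products that contain a chosen viewpoint, and counts the partner DpnII fragments, called interactions here. DpnII cuts at GATC. In erythroid cells the α-globin genes are activated by a cluster of enhancers that lies in and beside the introns of Nprl3, a neighbouring gene. The enhancers R1 and R2 are the strongest of that cluster. CTCF is a DNA-binding protein that halts cohesin, the complex that extrudes chromatin loops. CTCF sites flank the domain in which enhancers and genes meet. The study proposes that the active α-globin genes, rather than the downstream CTCF sites, form its downstream boundary. The question put to these libraries was whether a transcribed gene body, added to a promoter, changes the contacts of the enhancers with the insert and with the genes beyond it. Interactions were read from R1, from R2 and from HS38, a viewpoint at the upstream CTCF boundary. The name HS38 is that of the deposited list. Its fragment (chr11:32138079-32139000, mm9) does not cover the HS-38 site as placed by the study, so the name may be exchanged with that of the neighbouring HS-39.

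The sequences at the landing site and inside the copied gene body decide which fragments can report the insert, and are shown with GATC in capitals. They were read from the mm9 reference, plus strand. The landing site (chr11:32171787-32171856) is intergenic. The gene-body windows, from Hba-a1, hold the first 3 GATC sites (chr11:32183814-32183843) and the last (chr11:32184098-32184127). The first window lies in an intron that an annotated retained-intron transcript keeps, and the second in a coding exon.
Landing site: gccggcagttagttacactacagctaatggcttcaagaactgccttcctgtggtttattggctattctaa
Gene body, first cut sites: ccttGATCtgtaagGATCacagGATCcaat
Gene body, last cut site: caagctgcgtgtgGATCccgtcaacttcaa

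The copied promoter (chr11:32183340-32183712, 373 bp) held 0 GATC sites in the reference, and the copied gene body (chr11:32183713-32184493, 781 bp) held 4. GATC reads the same on both strands. Of windows of the same lengths tiled over the domain, 61.6% of 443 and 85.8% of 212 held at least 1. The landing site lies in a fragment of 1441 bp (chr11:32170702-32172142), 1085 bp from its left end and 286 bp from its right end. From the reference sequence, the αPonly insert therefore adds no cut site to this fragment, and the αP+G insert adds 4. The fragment of 275 bp wholly inside the copied gene body (chr11:32183838-32184112) is identical to its Hba-a2 counterpart (chr11:32196655-32196929). The next fragment (chr11:32184113-32184705, 593 bp) differs from its counterpart at 3 bases. Reads of the insert in these fragments are counted at the native genes, and the copies cannot be told apart.

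The 8 libraries held between 6123 and 19067 cis interactions outside the exclusion zone of HS38, R1 or R2. αPonly replicate 2 was the shallowest from all 3 viewpoints. Values below are interactions per 100,000 of these. Of 36 replicate pairs, 0 matched within sampling noise, with a chi-square of 1.47 to 2.61 for each degree of freedom. The share of interactions on the viewpoint's own chromosome differed between αP+G and αPonly by less than the replicate spread from all 6 viewpoints, by -0.585 to 0.689 percentage points (exact two-sided permutation p 0.514 to 0.943, adjusted p 0.943 for each). From the unedited control viewpoints Hbb-b1 and Hbb-b2, the β-globin genes on chromosome 7, and Slc25A37, an erythroid mitochondrial iron importer on chromosome 14, 0 of 1009 fragments were called (0%) at an edgeR adjusted p under 0.05. There, 42 had an unadjusted p under 0.05, and DESeq2 also called 0.

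Contacts of R2 with the insertion region (chr11:32169922-32173392) were higher with the gene body than with the promoter alone. The αP+G libraries held 2363, 2458, 2396 and 2166 interactions per 100,000, with a mean of 2346 ± 126 (SD, n = 4). The αPonly libraries held 1906, 1922, 1689 and 1879, with a mean of 1849 ± 108 (SD, n = 4). The groups did not overlap. The WT αYFP libraries, without an insert, held 1961, 1458 and 1878, and all 4 αPonly libraries lay inside that range.

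The log2 fold change of αP+G over αPonly from R2 was 0.35 (SE 0.10, 95% interval 0.15 to 0.55, edgeR adjusted p 0.0277), which is 1.27-fold (exact two-sided permutation p 0.0286, the smallest that 4 against 4 libraries allow). Against WT αYFP, which is the shared reference of both values, the log2 fold changes were 0.42 for αP+G (adjusted p 0.0025) and 0.07 for αPonly (adjusted p 0.731). The call was lost without αP+G replicate 1 (adjusted p 0.123) or 3 (0.0505), and without αPonly replicate 2 (0.125), 3 (0.261) or 4 (0.0894), with log2 fold changes between 0.30 and 0.39 over all 8 omissions.

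From R1, the second enhancer, the insertion region held 1974, 1653, 2103 and 2300 interactions per 100,000 in αP+G and 1761, 1486, 1369 and 1516 in αPonly. Of the αP+G libraries, 3 of 4 lay above every αPonly library, and replicate 2 lay inside the αPonly range. The log2 fold change was 0.40 (SE 0.12, 95% interval 0.15 to 0.65, edgeR adjusted p 0.0287), or 1.32-fold, with an exact permutation p of 0.0571. This call did not hold under edgeR's robust moderation of the spread (adjusted p 0.0815, an alternative chosen after the data were seen), TMM factors (0.162), DESeq2 size factors (0.137) or the locus total as library size (0.104). It was also lost without αP+G replicate 1 (0.132), 3 (0.0972) or 4 (0.134), and without αPonly replicate 2 (0.125), 3 (0.261) or 4 (0.11).

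From HS38, which is no enhancer, the region held 841, 604, 865 and 790 interactions per 100,000 in αP+G and 723, 631, 637 and 913 in αPonly, and the groups overlapped. The resulting log2 fold change was 0.09 (SE 0.15, 95% interval -0.23 to 0.42, edgeR adjusted p 0.783). The difference between viewpoints was tested in itself. The log2 ratio of the insertion region from R2 over that from HS38 was 1.61 ± 0.28 in αP+G and 1.36 ± 0.24 in αPonly (SD, n = 4 each), a difference of 0.25 (exact permutation p 0.286). It was 0.11 without αP+G replicate 2, 0.14 without αPonly replicate 4 and between 0.26 and 0.33 without any other library. The ratio of R2 over R1 was 0.23 ± 0.27 and 0.27 ± 0.11 (SD, n = 4 each), a difference of -0.04 (exact permutation p 0.8), which lay between -0.15 and 0.065 when each library was left out in turn. Neither difference between viewpoints passed.

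**Figure D1:**
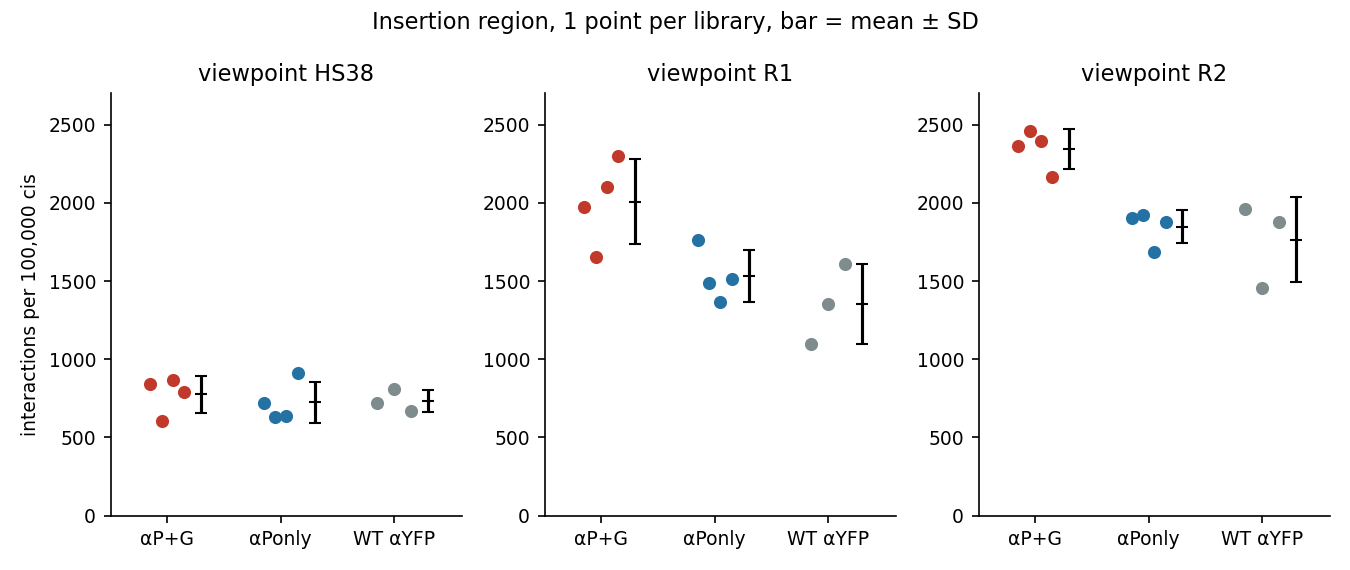
Interactions of the insertion region per 100,000 cis interactions (vertical axis, from 0) in each library of αP+G, αPonly and WT αYFP, from the viewpoints HS38, R1 and R2. Bars beside the points are the mean and SD. From R2 the 4 αP+G libraries sit between 2166 and 2458, all above the αPonly libraries, and from HS38 the groups overlap.

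The fragment that received the insert was then set apart from the rest of the region. From R2 it held 452, 370, 428 and 270 interactions per 100,000 in αP+G and 186, 264, 325 and 383 in αPonly, and the groups overlapped (log2 fold change 0.37, edgeR adjusted p 0.808). Without it, the region held 1911, 2088, 1968 and 1896 in αP+G and 1721, 1658, 1364 and 1496 in αPonly, again with no overlap. The log2 fold change was then 0.34 (SE 0.11), close to that of the whole region, and the adjusted p was 0.0705. From R1 the landing-site fragment had the largest log2 fold change of the region's fragments, at 0.88 (SE of 0.27 and adjusted p of 0.086 in edgeR), from 342 ± 90.7 in αP+G and 189 ± 64.1 in αPonly (SD, n = 4 each). Without it, the log2 fold change of the region from R1 was 0.32 (SE 0.13, adjusted p 0.12). The part of the 4 added cut sites in these values was not tested.

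Downstream of the landing site, the fragment chr11:32172631-32172860 held 380, 450, 313 and 437 interactions per 100,000 from R2 in αP+G and 303, 264, 236 and 302 in αPonly. The groups did not overlap, but the fragment did not pass the test over all fragments (log2 fold change 0.52, edgeR adjusted p 0.333). The other fragments of the region from R2 had log2 fold changes between -0.05 and 0.50, with overlapping groups.

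For the native targets beyond the landing site, no difference between αP+G and αPonly passed the test, while R2 contacts in αP+G were lower than in the line without an insert. The region from Hba-x, the embryonic ζ-globin gene, to the upstream side of Hba-a1 (chr11:32175105-32182970) held 4793, 4293, 4734 and 4326 interactions per 100,000 from R2 in αP+G and 5086, 4861, 4841 and 4507 in αPonly. Of the αP+G libraries, 2 of 4 lay below every αPonly library. The log2 fold change was -0.09 (SE 0.08, 95% interval -0.25 to 0.07, edgeR adjusted p 0.644, exact permutation p 0.143). From R1 it was 0.05 (SE 0.07, 95% interval -0.09 to 0.20, adjusted p 0.75), with 5141 ± 346 in αP+G and 4934 ± 245 in αPonly (SD, n = 4 each). From HS38 it was 0.17 (adjusted p 0.292), and 3 of 4 αP+G libraries lay above every αPonly library. The WT αYFP libraries held 5544, 5038 and 6382 from R2, above every αP+G library. Against them, as the shared reference, the log2 fold changes from R2 were -0.32 for αP+G (SE 0.08, adjusted p 0.0025) and -0.23 for αPonly (SE 0.08, adjusted p 0.0821). From R1 they were -0.11 (adjusted p 0.46) and -0.16 (adjusted p 0.269). These comparisons with WT αYFP, like those of the insertion region, were fitted under the main settings alone, without leaving any library out.

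Set against these native targets in the same library, the insertion region lay higher in αP+G. The log2 ratio of insertion region over native targets from R2 was -1.02, -0.80, -0.98 and -0.998 in αP+G and -1.42, -1.34, -1.52 and -1.26 in αPonly, with no overlap. The difference was 0.43 (exact permutation p 0.0286, adjusted p 0.171 over 6 ratios). With 4 against 4 libraries, 1 ratio alone at the smallest possible p cannot get an adjusted p under 0.171, so the correction could not be passed by it alone. From R1 the difference was 0.33 (exact permutation p 0.0857, adjusted p 0.229). This ratio does not depend on the cis total.

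A step in contacts across the landing site was not detected. From R2, the 10 kb before the landing site held 989 ± 34.2 interactions per kb in αP+G and 917 ± 21.7 in αPonly, and the 10 kb after it held 724 ± 35.9 and 711 ± 43.3 (SD, n = 4 each, per 100,000). The log2 ratio of after over before was -0.45 ± 0.02 in αP+G and -0.37 ± 0.07 in αPonly, a difference of -0.08 (exact permutation p 0.114, adjusted p 0.229). From R1 the difference was 0.07 (exact permutation p 0.371, adjusted p 0.446), and lay between 0.03 (without αPonly replicate 2) and 0.11 (without αPonly replicate 3) when each library was left out. The landing-site fragment was left out of both sides.

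**Figure D2:**
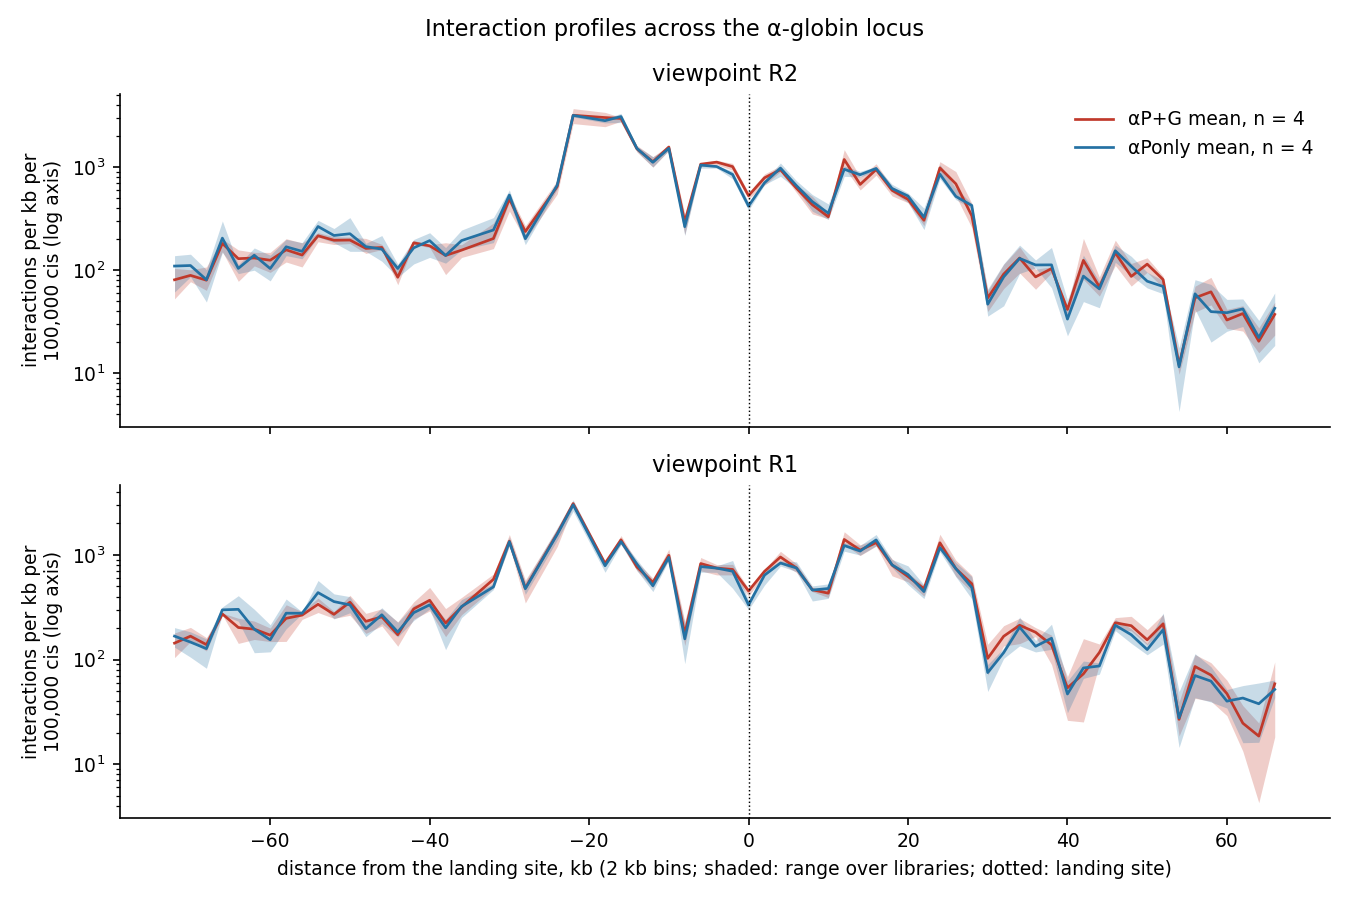
Interactions per kb per 100,000 cis interactions (log axis) in 2 kb bins against the distance from the landing site in kb, for R2 and R1. Lines are means of 4 libraries, shading is the range over them, and bins near a viewpoint are left out. The αP+G line lies above the αPonly line in the bin at the landing site, at 0, from both viewpoints. From R2 every αP+G library also lies above every αPonly library at -2 kb (means 1016 and 852) and -4 kb (1123 and 1018), on the enhancer side. At 14 kb from R2 every αP+G library lies below (682 and 847). The bins at -2, -4 and 14 kb were picked for this separation from all bins drawn. No bin was tested, and the share of separated bins was not counted. From R1 the groups overlap at -2 and -4 kb. The lines also part in bins of low counts far from the landing site.

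Counted at the fragments that share the inserted sequence, R2 contacts of the α-globin gene body had higher means in αP+G, without passing the test over all fragments. Hba-a1 and Hba-a2 encode adult α-globin, and reads here can come from the native genes or from the insert. In the fragment inside the Hba-a1 gene body (chr11:32183838-32184112), αP+G held 651, 530, 822 and 471 interactions per 100,000 and αPonly 413, 346, 441 and 434. In the Hba-a2 counterpart (chr11:32196655-32196929), αP+G held 687, 462, 718 and 540 and αPonly 413, 356, 420 and 377. The groups did not overlap in either, and the log2 fold changes were 0.58 (SE 0.18) and 0.61 (SE 0.18), with an edgeR adjusted p of 0.131 for each. The fragments are identical in sequence, so they are not separate observations.

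From R2, 1.43% of 280 fragments tested had every αP+G library above every αPonly library, the share expected without any group difference. These 4 were the 2 gene-body fragments, the fragment downstream of the landing site named above and chr11:32210412-32212583, an intergenic fragment of low counts with a log2 fold change of 0.57 (adjusted p 0.884). The 4 gene-body fragments of both genes together, including those with the end of the copied gene body, held 2864, 2113, 3328 and 2011 in αP+G, 1597, 1617, 1841 and 1949 in αPonly, and 1607, 1900 and 1929 in WT αYFP. Replicates 1 and 3 of αP+G stood well above replicates 2 and 4, which were closer to αPonly. The log2 ratio of the means was 0.56 from R2, 0.20 from R1 and 0.20 from HS38, and the groups overlapped from R1 and HS38. For the fragments wholly inside the gene body alone, summed over both genes, the log2 ratio was 0.61 from R2, 0.33 from R1 and 0.21 from HS38, with no overlap from R2 and HS38. From HS38, however, WT αYFP, without an insert, held 886, 900 and 1044, beside 957 ± 48.8 in αP+G and 825 ± 65.9 in αPonly (SD). From R2, WT αYFP held 715, 745 and 1008, beside 1220 ± 266 in αP+G and 800 ± 68.5 in αPonly (SD).

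From R2, the neighbouring fragments gave smaller values of either sign. Those with the copied promoter had a log2 ratio of the means of 0.08 from R2, with overlapping groups (1375, 1103, 1441 and 850 in αP+G, 1562, 936, 1086 and 924 in αPonly). Their ratio was 0.33 from HS38 and 0.24 from R1, beside 0.20 and 0.20 for the gene-body fragments, again with overlapping groups. Both inserts carry the promoter, but these fragments also hold the start of the gene body, which only αP+G carries. The 33 other fragments of the region with the adult genes, which share no copied sequence, had a log2 ratio of -0.13 from R2 (8458, 7527, 8843 and 7830 in αP+G, 9167, 8816, 8460 and 9309 in αPonly). The whole region from Hba-a1 to the end of the sub-TAD (chr11:32182971-32203107) had a log2 fold change of 0.01 from R2 (SE of 0.06 and adjusted p of 0.942 in edgeR), and 0.05 from R1.

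**Figure D3:**
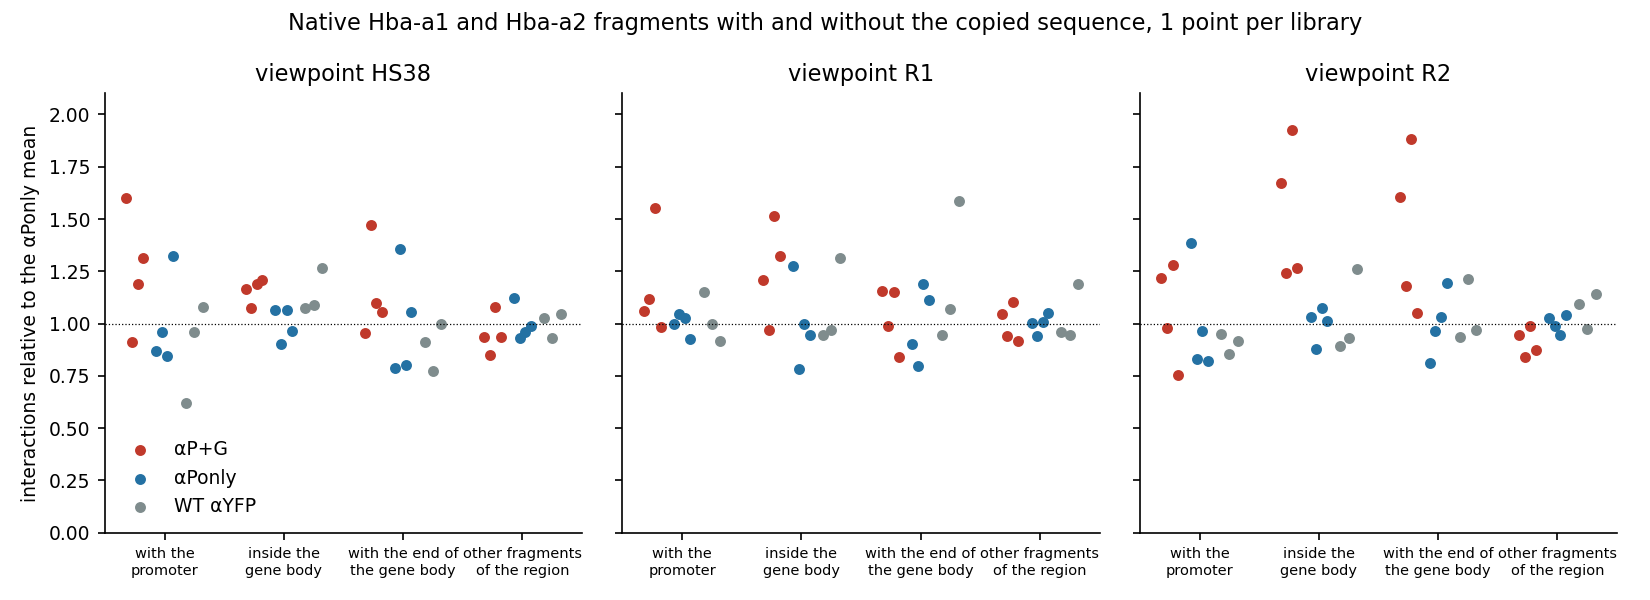
Interactions of each library of αP+G, αPonly and WT αYFP divided by the αPonly mean (vertical axis, from 0; dotted line at 1), summed over Hba-a1 and Hba-a2 fragments with the copied promoter, inside the copied gene body, with its end, and over the other fragments of the region, from HS38, R1 and R2. From R2 the αP+G points lie above all αPonly points inside the gene body, and the groups overlap in the other fragments.

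Over annotated genes, 1 of 341 pairs of gene and viewpoint was called (0.293%), and 26 had an unadjusted p under 0.05. It was Hba-a2 from R2, with 1272 ± 321 interactions per 100,000 in αP+G and 812 ± 72.5 in αPonly (SD, n = 4 each). Its log2 fold change reached 0.64 (SE of 0.15 and adjusted p of 0.00348 in edgeR), and every αP+G library lay above every αPonly library. By fragment midpoint, this value rests on the gene-body fragments that the insert copies, so it is uncertain as a value of the native gene. With the gene extended by 2 kb on each side the log2 fold change was 0.18 (adjusted p 0.634). The call was also lost without αP+G replicate 1 (adjusted p 0.164) or 3 (0.114) and without αPonly replicate 1 (0.082) or 3 (0.211). Hba-a1 from R2 showed 0.47 (SE 0.14, adjusted p 0.148), and both genes had values between 0.18 and 0.22 from R1 and HS38.

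The other globin genes did not pass. Hba-x had log2 fold changes of -0.06 from R2, 0.08 from R1 and 0.34 from HS38 (edgeR adjusted p 0.895, 0.812 and 0.587). Hbq1b and Hbq1a are the θ-globin genes, which lie beside each adult gene. Hbq1b showed -1.21e-04 from R2, -0.03 from R1 and 0.08 from HS38. Hbq1a showed -0.47 from R2 (adjusted p 0.496), with 343 ± 138 in αP+G and 478 ± 15.5 in αPonly (SD, n = 4 each), but 0.09 from R1 and 0.18 from HS38 (adjusted p 0.942 and 0.781).

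On the other side of the enhancers lie genes outside the globin family. Snrnp25 encodes a protein of the minor spliceosome, and its log2 fold change was 0.26 from HS38 with no overlap of the groups (edgeR adjusted p 0.587), -0.28 from R1 and 0.09 from R2. Rhbdf1, an inactive rhomboid protease, showed 0.01, -0.15 and -0.15 from HS38, R1 and R2, and from R1 every αP+G library lay below every αPonly library (adjusted p 0.602). The share of such separations over all 341 pairs was not counted, here or for Hba-a2 from R2, so neither is read as a difference. Mpg, a DNA repair glycosylase, showed 0.06, 0.09 and -0.01, and Nprl3, a regulator of amino acid signalling to mTORC1 whose introns hold the enhancers, -0.0049, 0.05 and 0.02. Il9r, the interleukin 9 receptor, ranged from -0.23 to 0.07, and the few counts of Gm12109 gave -0.72 to 0.32. Beyond the domain, Sh3pxd2b, an adaptor of podosomes, showed -0.18, -0.29 and -0.28. The median over the 12 locus genes was 0.13 from HS38, 0.01 from R1 and -0.00487 from R2, beside -0.03 over all genes tested from each viewpoint.

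**Figure D4:**
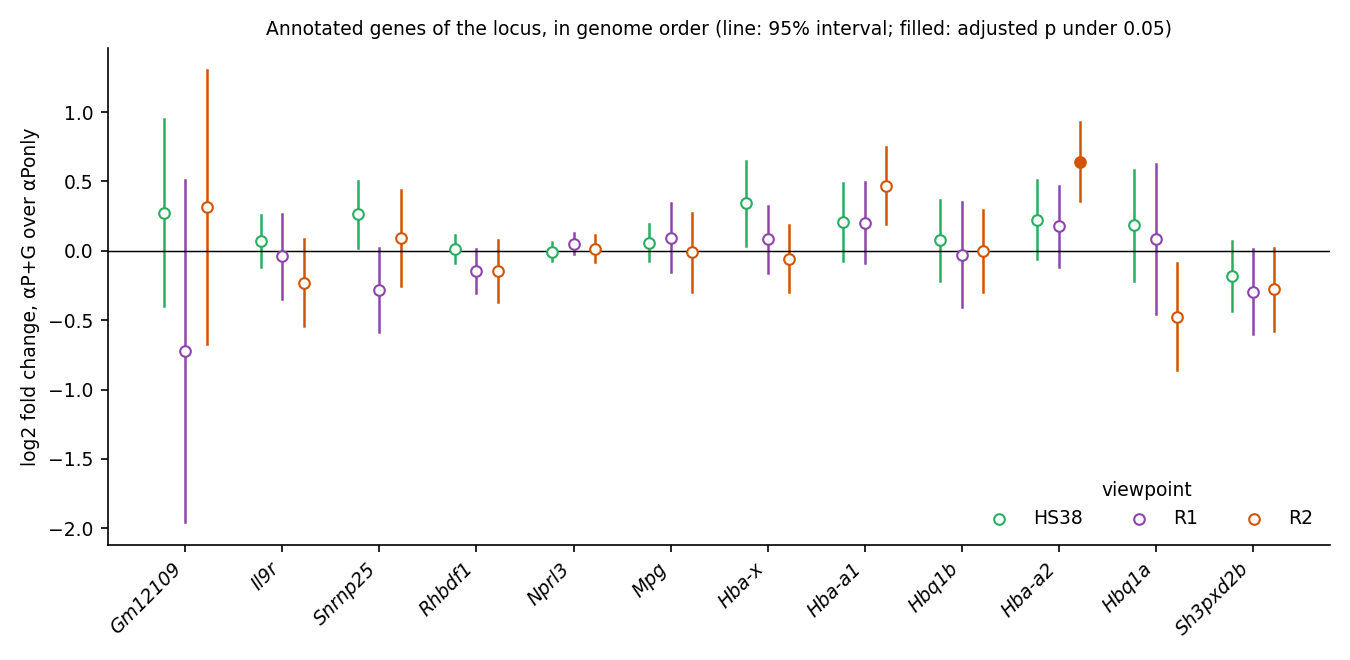
Log2 fold change of αP+G over αPonly (vertical axis) for the 12 annotated genes of the locus in genome order, from HS38, R1 and R2, with 95% intervals. Hba-a2 from R2, at 0.64, is the 1 filled point, past an adjusted p of 0.05.

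Among 30 combinations of region and viewpoint, 2 were called (6.67%), the insertion region from R1 and from R2, both higher in αP+G. In 2 of 30 (6.67%) every αP+G library lay above every αPonly library, the insertion region from R2 and the HS+44/+48 window from R1. The HS+44/+48 window (chr11:32215333-32227686) holds CTCF sites downstream of the genes. From R1 it held 1891, 1775, 1805 and 1851 interactions per 100,000 in αP+G and 1690, 1682, 1362 and 1373 in αPonly (log2 fold change 0.28, SE 0.12, edgeR adjusted p 0.149). From R2 the log2 fold change was 0.03. From R1 the WT αYFP libraries held 2025, 1717 and 1407, a range that covers every αP+G library. Against WT αYFP the log2 fold change of αP+G from R1 was 0.12 (edgeR adjusted p 0.642). The window lies inside the flank from the sub-TAD to the TAD end, so the combinations are not all distinct.

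The region beyond the TAD, with Sh3pxd2b, lay lower in αP+G without passing. From R1 it held 858, 977, 894 and 1084 interactions per 100,000 in αP+G and 1123, 1225, 1391 and 1106 in αPonly, with no overlap (log2 fold change -0.35, SE 0.15, edgeR adjusted p 0.149). From R2 the log2 fold change was -0.32 (SE 0.13, adjusted p 0.146) and from HS38 -0.17 (adjusted p 0.312). The enhancer cluster had log2 fold changes of 0.04 from R1, 0.04 from R2 and -0.03 from HS38. The region upstream of the sub-TAD showed 0.05 from HS38, -0.07 from R1 and -0.10 from R2. The flank from the sub-TAD to the TAD end showed 0.15 from R1 (adjusted p 0.292) and 0.03 from R2. The region named HS-38/-39 ranged from -0.11 to 0.19 and the HS+65/66 window from -0.17 to 0.01, both with wide intervals. From HS38, the HS-38/-39 region is only the fragment chr11:32135980-32136424, which ends before HS-38 as placed by the study. From R1 and R2 it ends at 32137129, so it holds the boundary sites at most in part.

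**Figure D5:**
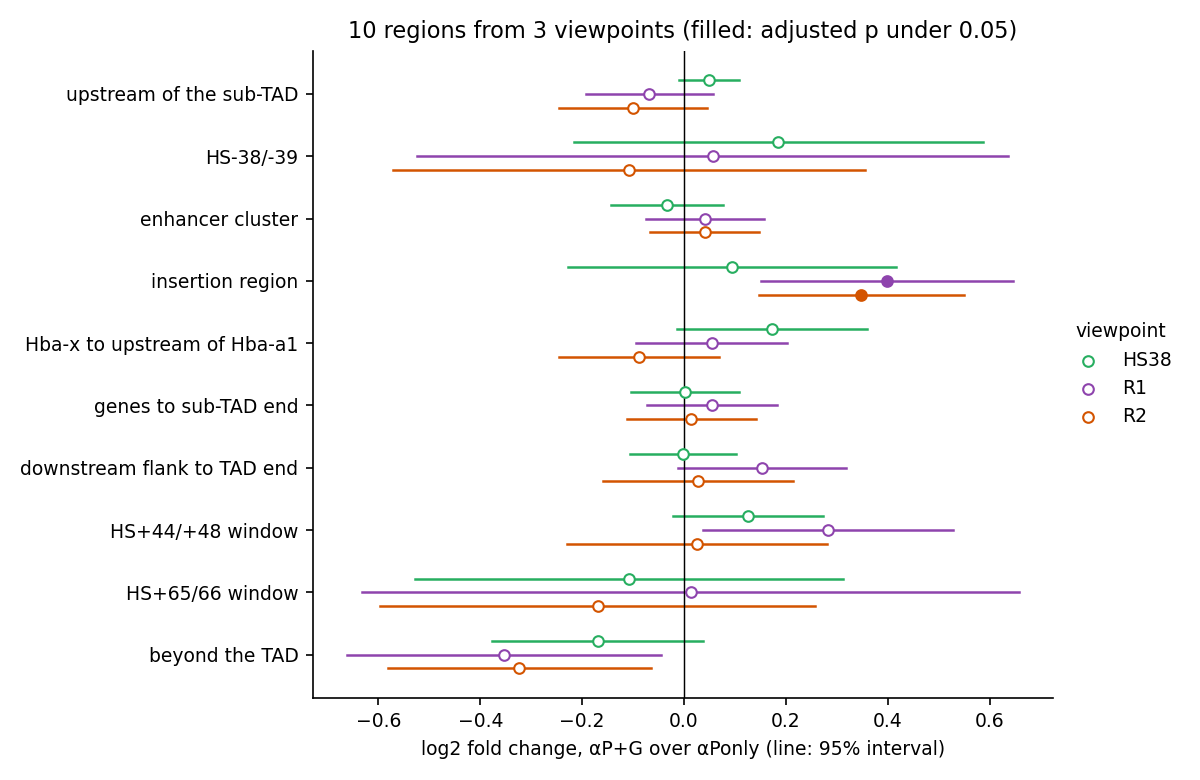
Log2 fold change of αP+G over αPonly (horizontal axis) for 10 regions from the viewpoints HS38, R1 and R2, with 95% intervals. The filled points, past an adjusted p of 0.05, are the insertion region from R1 (0.40) and R2 (0.35).

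Over single fragments, 0 of 333 were called from HS38 (0%), 1 of 260 from R1 (0.385%) and 0 of 280 from R2 (0%), while 20, 15 and 18 had an unadjusted p under 0.05. DESeq2 called 1 in all. The fragment called from R1 (chr11:32117144-32117609) overlaps an exon of Rhbdf1 and was lower in αP+G. It held 120, 84.5, 63.2 and 52.9 interactions per 100,000 in αP+G and 319, 196, 165 and 229 in αPonly, from at most 27 counts in a library. Its log2 fold change stood at -1.48 (SE of 0.36 and adjusted p of 0.0124 in edgeR). The call was lost without αP+G replicate 3 (adjusted p 0.0622) or 4 (0.132) or αPonly replicate 1 (0.137). The whole of Rhbdf1 from R1 had a log2 fold change of -0.15 (adjusted p 0.602).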

How the data were processed

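The authors trimmed reads with Trim Galore, cut them in silico at DpnII sites, aligned them to mm9 with Bowtie, removed duplicates and deposited counts of interactions per fragment, viewpoint and library. Reads from near-identical copies cannot be assigned. Of 41173 chromosome 11 fragments, 41172 starts and 41173 ends lay inside a GATC of the reference used here. Fragments touching a viewpoint's deposited exclusion zone were left out, and the remaining cis total was the library size. Counts of fragments, regions and genes (by fragment midpoint, GENCODE vM1) were tested with edgeR 4.0.16 (quasi-likelihood, R 4.3.3) over the 11 CD71+ libraries, for fragments and genes with a mean count of at least 5. Adjusted p is Benjamini-Hochberg, within a viewpoint for fragments and over all 3 viewpoints for regions and genes, with a threshold of 0.05. SE is the absolute log2 fold change over the root of F. Named were all 10 regions, locus genes, called fragments and fragments of the insert. Ratios and cis shares were compared by exact two-sided permutation (scipy 1.17.1). DESeq2 1.42.0 was an alternative, as the study used it. Region members and lists were chosen with earlier results of these data known. The fits were also run on simulated counts, with larger region changes than those found here, so that run gives no support to the calls. Counts of whole interactions limit precision, and a p measures the spread between differentiations. Ter119+ libraries were not used here.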

Additional observations from a re-analysis of the deposited data

Results flagged for a closer look

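Among 156 groups of 4 values, 4 had 1 library far from the other 3, a gap that chance gives in about 1 of 20 groups. In αP+G, the log2 ratio of the insertion region from R2 over HS38 was 2.02 in 1 library and lower in the others, and the log2 ratio of contacts after over before the landing site from R2 was -0.48 in 1 library. In αPonly, 1 library stood high for the HS+65/66 window from R1, at 359 interactions per 100,000, and for Mpg from R1, at 1773.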

How the results depend on the processing

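Of 265 alternative values, 206 kept their direction and side of the threshold. The 5 region log2 fold changes kept their sign except for the insertion region from HS38 without 1 library (below).

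Without the landing-site fragment, the insertion region was no longer called from R2 (0.34) or R1 (0.32), and the R2 against R1 gain turned from -0.041 to 0.034. From R1 the call was also lost under TMM factors (0.36), DESeq2 size factors (0.35), the locus total (0.36) and robust moderation (0.40, chosen after the data were seen), each of which left 1 region called. Fragments called fell to 0 at an adjusted p under 0.01 and at a mean count of at least 20, and genes called to 0 with genes extended by 2 kb. With 20 kb windows the right-to-left difference from R1 was -0.0079. Leaving out each replicate gave 0 to 3 fragments, 0 to 2 regions and 0 to 2 genes called, and log2 fold changes of 0.30 to 0.39 (R2), 0.33 to 0.48 (R1) and -0.000658 (without αPonly replicate 3) to 0.24 (HS38) for the insertion region. For R2 against R1 the range was -0.154 to 0.065 (the highest without αP+G replicate 4), and for insertion region over native targets from R2 0.38 to 0.47, where 3 against 4 libraries cannot go below 0.0571. The causes were not tested.

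Replicate numbers did not pair the libraries (correlation of deviations of same-numbered libraries -0.10 to 0.06, and 1 of 4 αP+G libraries correlated best with its own number). With the replicate number as a block, 1 fragment, 2 regions and 1 gene were called, and the insertion region from R2 changed by 0.35 and from R1 by 0.40. With 6123 to 19067 cis interactions a library, small regions such as HS-38/-39 had wide intervals.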
